A study of Mus musculus with 12 samples.

Results

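Ccr1, Ccr2, Ccrl2, Cx3cr1 and Cxcr4, a set of 5 chemokine receptor genes, were followed among the 24562 genes of an RNA-seq count table of mouse peritoneal macrophages. The set is a given list of receptor symbols, and each gene was represented by its RefSeq transcript with the highest mean count (Ccr1 NM_009912, Ccr2 NM_009915, Ccrl2 NM_001302376, Cx3cr1 NM_009987 and Cxcr4 NM_009911). The macrophages came from female mice on a chow diet or a high fat diet (HFD), and were sampled at 0 h or after 24 h of lipopolysaccharide (LPS), the bacterial cell wall component sensed by the receptor TLR4. There were 4 groups of 3 libraries, called below by diet and time, such as HFD 24 h. The sources used here give no strain, genotype, age, diet length or LPS dose, and do not say whether the cells were elicited or whether LPS was applied in the animal or in culture. The labels name no untreated 24 h group, and the effect of LPS and that of elapsed time cannot be told apart. Whether libraries of a group came from separate mice is not stated in the labels, and p-values therefore reflect the spread of these libraries alone, possibly a technical one.

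Chemokine receptors are membrane receptors with 7 transmembrane helices that couple to inhibitory G proteins and steer leukocytes along gradients of secreted chemokines. Ccr1 and Ccr2 bind inflammatory CC chemokines, and Ccr2 with its ligand Ccl2 brings classical monocytes out of bone marrow and into inflamed tissue. Cx3cr1 binds the membrane-tethered ligand Cx3cl1 and marks patrolling monocytes and many resident macrophages, while Cxcr4 with Cxcl12 holds leukocytes in bone marrow. Ccrl2 is an atypical member that binds the attractant chemerin (Rarres2) and presents it to the signalling receptor Cmklr1 on other cells. In the peritoneal cavity, large resident macrophages are distinguished from smaller, monocyte-derived macrophages, and the latter are known to express Ccr2.

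In the RefSeq annotation of GRCm38.p6, Ccr1 lay at chr9:123962126-123968692 and Ccr2 at chr9:124101918-124109140, in a run of receptor genes that was followed here from Ccr9 to Ccr2. Ccrl2 (chr9:111054834-111057518) and Cx3cr1 (chr9:120048683-120068296) lay on the same chromosome, 12.9 Mb and 3.89 Mb before Ccr1. Cxcr4 was on chromosome 1 (chr1:128588199-128592299). In GENCODE, each coding sequence was held in the last exon of the transcript except in Cxcr4, where 21 bases stood in exon 1 and 1056 in exon 2.

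The sequences just upstream of the start sites of Ccr1 and Ccrl2, the 2 members that rose with LPS, are shown beside that of Cx3cr1, a member that fell. Each run is 250 bases from RefSeq (GRCm38.p6), written 5′ to 3′ on the minus strand, on which all 3 genes lie, and ends at the base before the start site. Capitals mark a match to the NF-kB consensus, named after a transcription factor family that acts downstream of TLR4.
Ccr1 (chr9:123968693-123968942): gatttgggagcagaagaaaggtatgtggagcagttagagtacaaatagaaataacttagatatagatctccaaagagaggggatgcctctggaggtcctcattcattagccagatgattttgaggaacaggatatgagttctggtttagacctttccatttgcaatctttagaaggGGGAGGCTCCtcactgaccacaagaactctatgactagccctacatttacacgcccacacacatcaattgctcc
Ccrl2 (chr9:111057519-111057768): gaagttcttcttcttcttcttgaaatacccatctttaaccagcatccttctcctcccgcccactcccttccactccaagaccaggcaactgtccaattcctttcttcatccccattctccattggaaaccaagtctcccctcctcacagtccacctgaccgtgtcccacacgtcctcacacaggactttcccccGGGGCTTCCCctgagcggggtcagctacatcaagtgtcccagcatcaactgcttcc
Cx3cr1 (chr9:120068297-120068546): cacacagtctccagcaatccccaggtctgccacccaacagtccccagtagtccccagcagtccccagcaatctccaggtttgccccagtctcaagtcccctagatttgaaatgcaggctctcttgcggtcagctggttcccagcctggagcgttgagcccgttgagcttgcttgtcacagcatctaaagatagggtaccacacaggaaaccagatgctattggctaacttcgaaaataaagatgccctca
The NF-kB consensus was searched on both strands in windows from 250 bases before to 50 bases after each start site. The match in Ccr1 lay 74 to 65 bases before the start, and the match in the Ccrl2 transcript counted here lay 56 to 47 bases before it. No match was in the windows of Ccr2, Cx3cr1 and Cxcr4, nor in the windows of the other 2 annotated starts of Ccrl2. Among 32851 windows of the same length in the RefSeq table, 8.46% held a match. Of 4 further motifs, the interferon-stimulated response element consensus (in 3.44% of all windows) and TGANTCA (AP-1, 7.81%) were in no member's window. GAGGAA (PU.1, 28.3%) was in the Ccr1 window, and ACGTG (HIF, 19.6%) was in all 3 Ccrl2 windows, the windows of the other starts sharing 1 match, with no overlap with an NF-kB match. A match describes the letters and is not a binding site.

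The libraries held 2360244 to 20688308 counts with 1 transcript per gene, the lowest being HFD 0 h replicate 3 and the next lowest 9135057. The macrophage markers Csf1r, Adgre1, Cd68, Mertk, Fcgr1, Itgam and Lyz2 were all present in every group, with summed levels between 9649 and 15696 CPM (read counts relative to the library total, adjusted by TMM factors for library composition). Of 9 markers of large resident peritoneal macrophages, all were detected in every group, but their sum was only 34.6 to 83.5 CPM, and Timd4 had a mean of 0.99 CPM in chow 0 h. Summed B cell markers stayed at or under 20.1 CPM, T and NK cell markers at or under 5.10 CPM and neutrophil markers at or under 84.2 CPM. Among neutrophil markers, S100a9, Ly6g, Camp and Ngp had no count in HFD 0 h, Ly6g had none in chow 0 h and S100a9 none in chow 24 h and HFD 24 h. Mesothelial and stromal markers summed to between 690.1 and 3012 CPM. In such bulk samples, fewer cells of a type and less RNA per cell cannot be told apart.

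After LPS, Ccr1 and Ccrl2 rose while Ccr2, Cx3cr1 and Cxcr4 fell, in chow and in HFD macrophages. The largest fold was in Ccr2, which was 6.42-fold lower at 24 h in chow, and the smallest was in Cxcr4, 2.12-fold lower in HFD. In each diet 5 of 5 members passed an adjusted p of 0.05, where 26.6% of the 12641 genes tested passed in chow and 24.6% in HFD (edgeR quasi-likelihood test, Benjamini-Hochberg over all genes tested). By direction, 2 members rose, as 13.7% of the genes tested did in chow and 12.7% in HFD, and 3 fell, as 12.9% did in chow (1628 genes) and 1511 genes did in HFD. The members were chosen with earlier results of these data known, so their counts beside all genes are a description. DESeq2 and limma-voom also called 5 of 5 members in each diet. The 0 h and 24 h libraries did not overlap for any member in either diet, a separation that 45.5% of genes showed in chow and 35.4% in HFD.

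**Figure D1:**
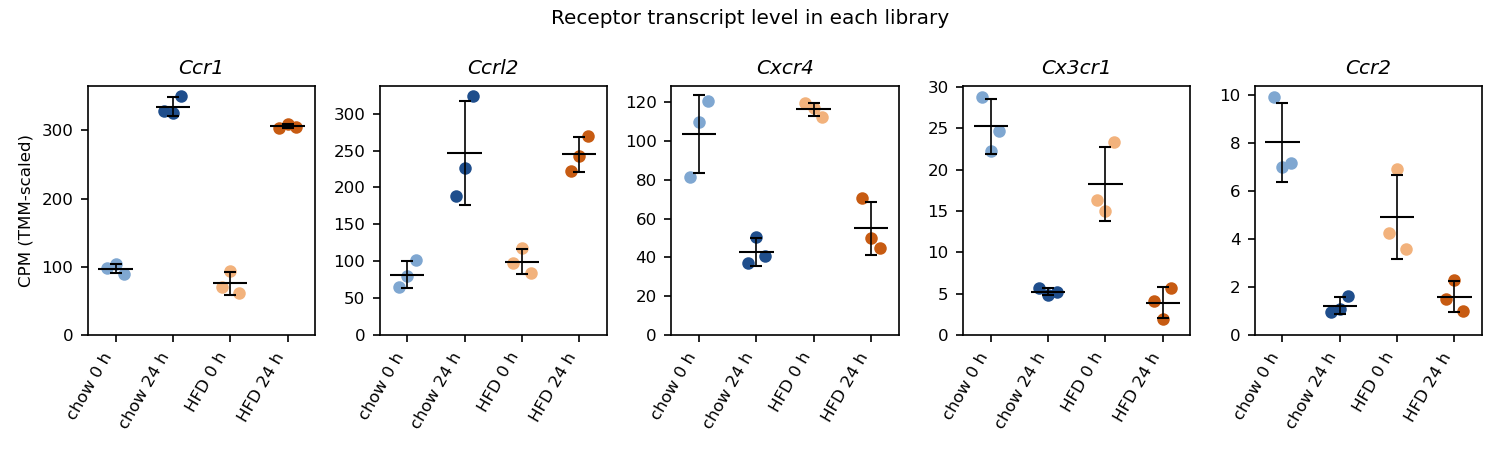
Level of each receptor in CPM (vertical axis, linear, from 0) in the 12 libraries by group, with points for libraries, horizontal lines for means and bars for 1 SD (n = 3). Ccr1 and Ccrl2 are higher in all 24 h libraries than in all 0 h libraries of the same diet, and Cxcr4, Cx3cr1 and Ccr2 are lower.

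Ccr1, a receptor for Ccl3, Ccl5 and other inflammatory chemokines, was at 98.4, 104 and 90.3 CPM in the chow 0 h libraries and at 329, 325 and 350 CPM in chow 24 h. In HFD it was at 71.1, 94.7 and 62.0 CPM at 0 h and at 303, 309 and 305 CPM at 24 h. All 24 h libraries thus stood above all 0 h libraries, and the HFD 24 h libraries lay within 6 CPM of each other. The log2 fold change with LPS was 1.78 ± 0.14 (SE) in chow (adjusted p = 4.81e-08, edgeR) and 1.99 ± 0.15 in HFD (adjusted p = 1.68e-08, edgeR), or 3.43-fold and 3.98-fold higher. Counts ranged from 138 in the shallow HFD 0 h replicate 3 to 6602.

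Ccrl2, the chemerin-presenting receptor, had 65.2, 79.5 and 102 CPM in chow 0 h and 188, 227 and 324 CPM in chow 24 h. The HFD libraries gave 97.4, 117 and 84.1 CPM at 0 h and 222, 243 and 269 CPM at 24 h. Spread was wider here than for Ccr1, with an SD of 70.2 CPM in chow 24 h, where replicate 3 was highest. Ccrl2 rose with LPS by 1.58 ± 0.20 on the log2 scale in chow (adjusted p = 1.13e-05, edgeR) and was 2.44-fold higher in HFD (log2 fold change 1.29 ± 0.20, adjusted p = 0.000111, edgeR).

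Cxcr4, the Cxcl12 receptor, was at 81.5, 110 and 120 CPM in chow 0 h and fell to 37.2, 50.8 and 40.7 CPM in chow 24 h. In HFD it was at 119, 117 and 112 CPM at 0 h and at 70.6, 49.8 and 44.9 CPM at 24 h. The lowest 0 h library of all, chow 0 h replicate 1, still stood above the highest 24 h library, HFD 24 h replicate 1. The log2 fold change was -1.28 ± 0.18 in chow (adjusted p = 4.55e-05, edgeR) and -1.08 ± 0.18 in HFD (adjusted p = 0.000248, edgeR).

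Cx3cr1, the receptor of the tethered chemokine Cx3cl1, had 28.8, 22.3 and 24.6 CPM in chow 0 h and 5.67, 4.85 and 5.18 CPM in chow 24 h. In HFD the values were 16.3, 15.03 and 23.4 CPM at 0 h, the last from 52 counts, and 4.11, 2.02 and 5.68 CPM at 24 h. No 24 h library reached 6 CPM and no 0 h library was under 15 CPM. Cx3cr1 was 4.81-fold lower in chow (log2 fold change -2.27 ± 0.28, adjusted p = 9.48e-06, edgeR) and 4.45-fold lower in HFD (-2.15 ± 0.29, adjusted p = 2.74e-05, edgeR).

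Ccr2, the receptor of Ccl2, was the least abundant member. It had 9.91, 6.97 and 7.15 CPM in chow 0 h, from 125, 86 and 86 counts, and 0.97, 1.08 and 1.64 CPM in chow 24 h, from 13, 12 and 25 counts. In HFD it had 4.27, 6.90 and 3.60 CPM at 0 h, from 41, 62 and 8 counts, and 1.50, 2.30 and 1.02 CPM at 24 h, from 19, 41 and 22 counts. The 0 h libraries were above the 24 h libraries in both diets, but in HFD the gap between the groups was only from 2.30 to 3.60 CPM, and the lower edge of the 0 h group rested on those 8 counts. The log2 fold change was -2.68 ± 0.37 in chow (adjusted p = 3.30e-05, edgeR) and -1.68 ± 0.38 in HFD (adjusted p = 0.00284, edgeR). Without HFD 0 h replicate 3 the HFD change of Ccr2 was -1.80 (adjusted p = 0.00233, edgeR).

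Since Ccr2 marks monocytes and their recent descendants, the monocyte markers are given beside its fall. Of 5 markers, 2 rose in each diet (Ly6c2 and Plac8) and 1 fell (F13a1, -1.22 ± 0.30 in chow and -1.30 ± 0.32 in HFD). Ly6c2, the antigen of classical monocytes, went from 2.45 ± 1.02 to 126 ± 63.2 CPM in chow (SD, n = 3) and from 1.70 ± 1.28 to 97.4 ± 11.8 CPM in HFD. The sum over the list, mostly Fn1, overlapped between the times, at 1496 to 2059 CPM in chow 0 h, 1334 to 2109 in chow 24 h, 868.7 to 1567 in HFD 0 h and 807.2 to 1181 in HFD 24 h. In both diets Ccr2 fell, as F13a1 did, while Ly6c2 and Plac8 rose and Fn1 and Chil3 did not pass. No marker of the list was at 0 in any group. The part of monocyte content in the fall of Ccr2 was not tested.

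Macrophage markers moved as well. Fcgr1 and Adgre1 rose and Lyz2, the lysozyme gene, fell in each diet (2 rose and 1 fell of 7), while Csf1r, the receptor that sustains macrophages, differed by -0.05 ± 0.13 in chow and 0.12 ± 0.13 in HFD and did not pass. The summed level ran from 14274 to 15617 CPM in chow 0 h and from 9649 to 11062 CPM in chow 24 h. In HFD it ran from 14107 to 15696 CPM at 0 h and from 9870 to 12317 CPM at 24 h. Lyz2 was the main part of that sum at 0 h, with a mean of 9831 CPM in chow and 9914 in HFD, and a smaller part at 24 h, with 4477 and 4858 CPM. Of 9 large resident macrophage markers, Timd4 rose and Vsig4 fell in each diet, and of 8 tested markers of small peritoneal macrophages and dendritic cells none passed in chow and H2-Ab1 rose in HFD. Siglecf fell in each diet and was the only member of the mast cell and eosinophil list of 7 to pass, and the summed level of that list fell from 39.0 to 48.8 CPM in chow 0 h to 16.6 to 24.4 CPM in chow 24 h, and from 34.2 to 42.7 CPM to 20.9 to 21.8 CPM in HFD. Of the other lists, S100a8 rose in each diet, Lck rose in HFD, Lrrn4 and Upk3b fell in each diet, and no B cell marker passed. Leaving out 1 library ended the HFD call of Timd4 (highest adjusted p = 0.117, edgeR, without HFD 0 h replicate 1), H2-Ab1 (0.0922, without HFD 24 h replicate 2), S100a8 (0.062, without HFD 24 h replicate 1) and Lck (0.166, without HFD 24 h replicate 2), and the call of Upk3b in chow (0.184, without chow 0 h replicate 1) and HFD (0.063, without HFD 0 h replicate 1). The part of these changes in the results for the receptors was not tested.

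The labels carry a sequencing lane tag, L008, for all 3 chow 24 h libraries and HFD 24 h replicate 1 and for no 0 h library. Among libraries without the tag, the HFD comparison could be made by leaving out HFD 24 h replicate 1. It gave log2 fold changes of 2.02 for Ccr1, 1.37 for Ccrl2, -1.28 for Cxcr4, -2.16 for Cx3cr1 and -1.62 for Ccr2, and 5 of 5 passed. In chow the tag and the 24 h group could be separated only through that 1 HFD library. With the tag as a term in the fit, the chow values were 1.797 for Ccr1, 1.79 for Ccrl2, -1.85 for Cxcr4, -2.34 for Cx3cr1 and -2.56 for Ccr2. All 5 passed, with adjusted p between 0.000233 and 0.0288 (edgeR), while genes called overall dropped from 3357 to 1509.

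**Figure D2:**
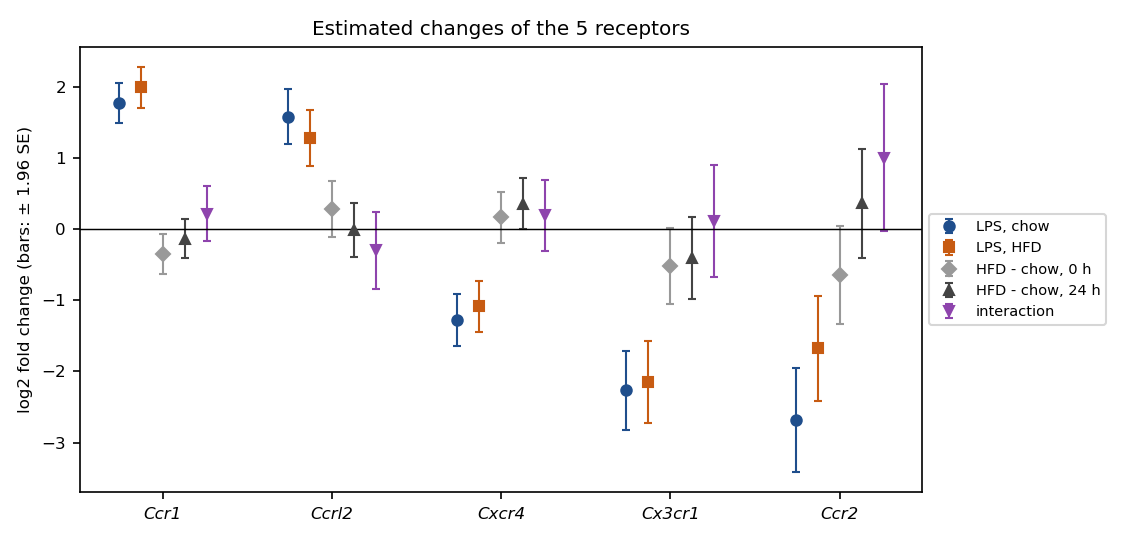
Log2 fold changes of the 5 receptors (vertical axis) in the LPS comparison of each diet, the diet difference (HFD minus chow) at each time and the interaction, with bars for 95% intervals from the edgeR standard errors. The LPS points of Ccr1 and Ccrl2 lie above 0 and those of Cxcr4, Cx3cr1 and Ccr2 below it, while the diet and interaction points lie between -0.64 and 1.01.

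Compared per kilobase of transcript, the order of the members changed between the times. In chow 0 h, Cxcr4 (57.5 ± 11.1 CPM per kilobase, SD, n = 3), Ccrl2 (44.1 ± 9.86) and Ccr1 (34.4 ± 2.41) led, followed by Cx3cr1 (6.72 ± 0.87) and Ccr2 (2.67 ± 0.55). Ranges overlapped between Cxcr4 and Ccrl2 and between Ccrl2 and Ccr1, and not between Ccr1, Cx3cr1 and Ccr2. After 24 h in chow, Ccrl2 (132 ± 37.7) and Ccr1 (118 ± 4.83) led with overlapping ranges, Cxcr4 came next (23.8 ± 3.92), and Cx3cr1 (1.39 ± 0.11) and Ccr2 (0.41 ± 0.12) came last.

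The order of the members in HFD was the same as in chow at each time. At 0 h the levels per kilobase were 64.4 ± 1.95 for Cxcr4, 53.5 ± 9.01 for Ccrl2, 26.8 ± 5.96 for Ccr1, 4.86 ± 1.20 for Cx3cr1 and 1.64 ± 0.58 for Ccr2, with overlap between Cxcr4 and Ccrl2 only. At 24 h they were 131 ± 12.7 for Ccrl2, 108 ± 1.01 for Ccr1, 30.5 ± 7.55 for Cxcr4, 1.05 ± 0.49 for Cx3cr1 and 0.54 ± 0.22 for Ccr2. There the ranges of Cx3cr1 (0.54 to 1.51) and Ccr2 (0.34 to 0.77) overlapped and those of Ccrl2 and Ccr1 did not, the reverse of chow 24 h. By group means Cxcr4 was therefore the first of the members at 0 h and the third at 24 h in each diet. Its 0 h range overlapped that of Ccrl2 in both diets. Ccrl2 was ranked on the single transcript entry used here, out of 3. How reads that fit several entries were counted is not stated, and the place of Ccrl2 depends on that.

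**Figure D3:**
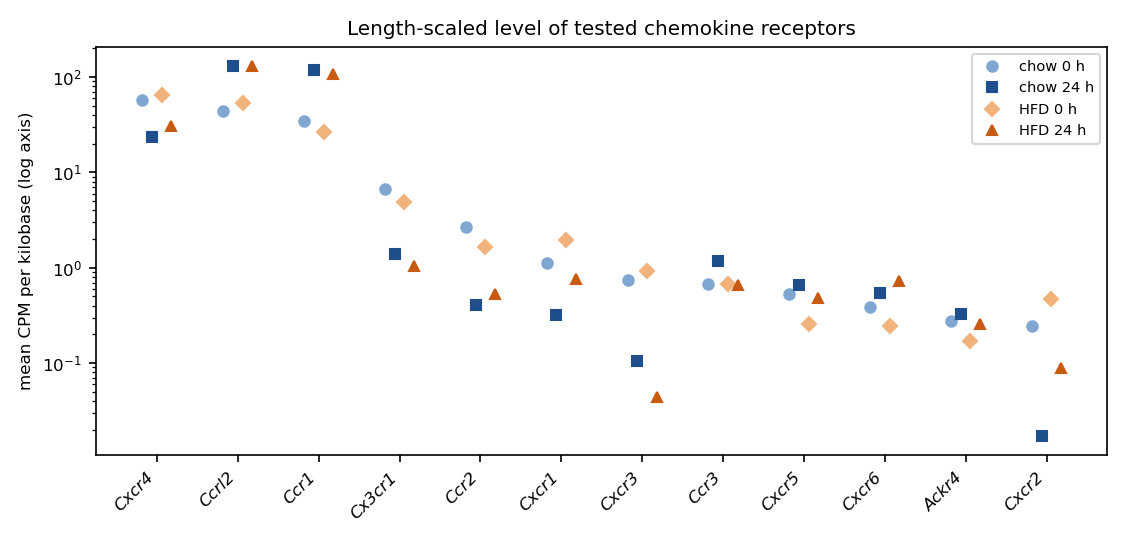
Group mean level per kilobase of transcript (vertical axis, log scale, CPM per kilobase) of 12 chemokine receptors that were tested and have a transcript length, with 1 symbol per group. Cxcr4, Ccrl2 and Ccr1 are the highest in every group, and all receptors to the right of Ccr2 have means under 2.

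The comparison of diets asked whether HFD macrophages held other receptor levels than chow macrophages. At 0 h, 0 of 5 members passed, where 0.0870% of the genes tested passed (11 of 12641, edgeR). The estimates, HFD minus chow, were -0.35 ± 0.14 for Ccr1 (approximate 95% interval from the SE, -0.62 to -0.07, adjusted p = 0.725), -0.64 ± 0.35 for Ccr2 (-1.33 to 0.04, adjusted p = 0.857) and -0.51 ± 0.27 for Cx3cr1 (-1.05 to 0.02, adjusted p = 0.842). Ccrl2 differed by 0.29 ± 0.20 (-0.10 to 0.68, adjusted p = 0.911) and Cxcr4 by 0.17 ± 0.18 (-0.19 to 0.52, adjusted p = 0.974). Ccr1 alone had an unadjusted p under 0.05, at 0.0266. The Ccr2 ranges did not overlap, at 6.97 CPM or more in chow against 6.90 CPM or less in HFD, a separation that 12.2% of all genes showed.

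At 24 h of LPS, 0 of 5 members passed, and 0.00791% of genes did (1 of 12641, edgeR). Ccr1 was the only member whose diet groups did not overlap, with 325 to 350 CPM in chow above 303 to 309 CPM in HFD, and 12.3% of all genes were separated in that way. Its difference was small, -0.13 ± 0.14 (approximate 95% interval -0.40 to 0.14, adjusted p = 0.891). For Cxcr4 the estimate was 0.36 ± 0.18 (0.00 to 0.72, adjusted p = 0.647) and for Ccr2 0.36 ± 0.39 (-0.41 to 1.13, adjusted p = 0.90). Cx3cr1 differed by -0.40 ± 0.29 (-0.98 to 0.17) and Ccrl2 by -0.01 ± 0.19 (-0.39 to 0.37). None of the 5 had an unadjusted p under 0.05 at 24 h.

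The diet by LPS interaction tested whether the LPS change differed between the diets. No member passed, where 0% of all genes did (0 of 12641, edgeR), and no member had an unadjusted p under 0.05, where 297 genes did. DESeq2 called 9 genes and limma-voom 0, and neither called a member in the interaction or in either diet comparison. The largest estimate was that of Ccr2, 1.01 ± 0.53 (approximate 95% interval -0.03 to 2.04, unadjusted p = 0.0735, edgeR), with a smaller fall in HFD. Its diet differences, HFD minus chow, were -0.64 at 0 h and 0.36 at 24 h, and neither passed. For Ccr1 the interaction was 0.21 ± 0.20 (-0.17 to 0.60), for Ccrl2 -0.30 ± 0.28 (-0.84 to 0.25), for Cx3cr1 0.11 ± 0.40 (-0.68 to 0.90) and for Cxcr4 0.19 ± 0.26 (-0.31 to 0.70). All 5 intervals include 0, and none of them shows that the responses were equal.

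Of other chemokine receptors, 18 were looked up and found in the table, and 8 passed the filter on low counts. With LPS in chow, 1 of the 8 rose (Ccr7), 2 fell (Cxcr3 and Cxcr2) and 5 did not pass, with a median log2 fold change of 0.29 against 0.00 over all genes. In HFD, Ccr7 rose, Cxcr3 fell and 6 did not pass, with a median of 0.32 against -0.0023 over all genes. None of the 8 passed in either diet comparison or in the interaction.

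Ccr7, which guides dendritic cells to lymph nodes, was at 11.8 to 18.1 CPM in chow 0 h and 24.2 to 32.6 CPM in chow 24 h, and at 3.64 to 9.46 CPM in HFD 0 h and 14.0 to 15.3 CPM in HFD 24 h. It was lower in all HFD libraries than in all chow libraries of the same time. Such a separation, in either direction, was shown by 12.2% of genes at 0 h and 12.3% at 24 h. The diet differences of Ccr7, -1.31 ± 0.29 at 0 h (adjusted p = 0.156, edgeR) and -0.92 ± 0.25 at 24 h (adjusted p = 0.333, edgeR), did not pass. Cxcr3, known from T and NK cells, fell from 48 to 8 summed counts in chow and from 31 to 4 in HFD. Cxcr2, the neutrophil receptor for CXC chemokines, had 5, 4 and 18 counts in chow 0 h and 0, 1 and 1 in chow 24 h, a 14.5-fold lower rate with a counting interval of 3.65 to 126. Chow 0 h replicate 3 held most of these counts, and without it the rate of Cxcr2 was 7.18-fold lower (counting interval 1.49 to 68.3) and its change did not pass (adjusted p = 0.141, edgeR). The chow calls of the other receptors were also lost by leaving out 1 library. Ccr7 did not pass without chow 0 h replicate 2 (adjusted p = 0.0806, edgeR) or chow 24 h replicate 1 (0.0558), and Cxcr2 was lost without the latter too (0.0719). Cxcr3 did not pass without chow 0 h replicate 1 (adjusted p = 0.0797, edgeR), nor without replicate 1 (0.0552) or 2 (0.0535) of chow 24 h. In HFD, Ccr7 and Cxcr3 passed without any 1 of the 12 libraries. In HFD, Cxcr2 did not pass (-2.31 ± 0.83, adjusted p = 0.0533, edgeR). The remaining tested receptors, Ccr3, Cxcr1, Cxcr5, Cxcr6 and Ackr4, passed in neither diet, with adjusted p between 0.0883 and 0.851 (edgeR).

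Within the run of receptor genes on chromosome 9, neighbours moved in different directions. In order of position the coding genes from Ccr9 to Ccr2 were Ccr9, Fyco1, Cxcr6, Xcr1, Ccr1, Ccr1l1, Ccr3 and Ccr2. Ccr1 rose with LPS in each diet and Ccr2 fell. Fyco1, an autophagy gene that is no receptor, differed by 0.13 ± 0.18 in chow and 0.28 ± 0.18 in HFD and did not pass. Cxcr6 lies within the span of Fyco1. Whether their exons overlap and share reads was not checked, and the strandedness of the counts is not given. Ccr3 and Cxcr6 did not pass either, and Ccr9, Xcr1 and Ccr1l1 were too low to be tested.

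The genes of the members' ligands were counted receptor by receptor. Among 5 ligands of Ccr1, 4 rose in each diet and none fell, with median log2 fold changes of 1.88 in chow and 2.65 in HFD. Ccl5 rose from 98.2 ± 12.2 to 1807 ± 163 CPM in chow and from 40.6 ± 6.94 to 1790.3 ± 119 CPM in HFD (SD, n = 3), with log2 fold changes of 4.20 ± 0.16 and 5.44 ± 0.17. Ccl7 rose by 4.94 ± 0.27 and 4.59 ± 0.30, Ccl9 by 1.56 ± 0.20 and 2.65 ± 0.21, and Ccl3 by 1.88 ± 0.24 and 1.62 ± 0.24. Ccl6 differed by -0.35 ± 0.30 in chow and 0.75 ± 0.30 in HFD and did not pass. Ccl5 was also the 1 ligand that differed by diet, with a log2 difference of -1.25 ± 0.15 in HFD at 0 h (adjusted p = 0.00134, edgeR). At 24 h the diet groups were level for Ccl5 (-0.01 ± 0.14), and its interaction of 1.24 ± 0.20 did not pass (adjusted p = 0.0805, edgeR).

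Of 4 ligands of Ccr2, 3 rose in each diet, with medians of 5.07 and 4.85 that rest on Ccl7 and Ccl2. Ccl2, the main monocyte attractant, rose from 19.1 ± 5.73 to 707 ± 58.4 CPM in chow and from 12.7 ± 4.68 to 470.2 ± 22.3 CPM in HFD, log2 fold changes of 5.21 ± 0.23 and 5.11 ± 0.24. Ccl12 had 0 counts in chow 0 h and 1127 in chow 24 h, at least 349-fold higher against a floor of 3 counts over the group. In HFD it went from 2 to 620 counts, a ratio of 124 with a counting interval of 34.1 to 1024. That ratio was 66.6 without 0 h replicate 1 and 69.2 without 24 h replicate 2, and 0 h replicate 2 held both counts. Ccl8 did not pass (1.44 ± 0.72 and 0.10 ± 0.68). So the receptor Ccr2 fell while 3 of its 4 ligand genes rose, whereas Ccr1 rose along with 4 of its 5. Ccl7 is counted in both lists, so the lists are not separate. Of all genes tested, 13.7% rose in chow and 12.7% in HFD.

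Of the ligand genes of the other members, Mif passed and Rarres2, Cx3cl1 and Cxcl12 did not. Rarres2, the gene of chemerin, stayed at 3.69 ± 0.77 and 3.30 ± 0.99 CPM in chow 0 h and 24 h and at 2.73 ± 0.15 and 3.37 ± 0.32 CPM in HFD, and did not pass. Its signalling receptor Cmklr1 rose from 79.8 ± 4.60 to 188 ± 17.2 CPM in chow (1.24 ± 0.15, adjusted p = 5.35e-06, edgeR) and from 67.5 ± 9.26 to 179 ± 30.2 CPM in HFD (1.42 ± 0.15, adjusted p = 1.60e-06, edgeR). Gpr1, a further chemerin receptor, had 1 count in all libraries together and was not tested. Cx3cl1 had group means from 1.14 to 2.23 CPM and did not pass. Of the 2 Cxcr4 ligands, Mif rose from 14.0 ± 1.04 to 41.9 ± 5.84 CPM in chow (1.58 ± 0.16) and from 13.6 ± 1.45 to 37.2 ± 3.98 CPM in HFD (1.43 ± 0.17), while Cxcl12 did not pass (0.48 ± 0.50 and -0.13 ± 0.55).

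**Figure D4:**
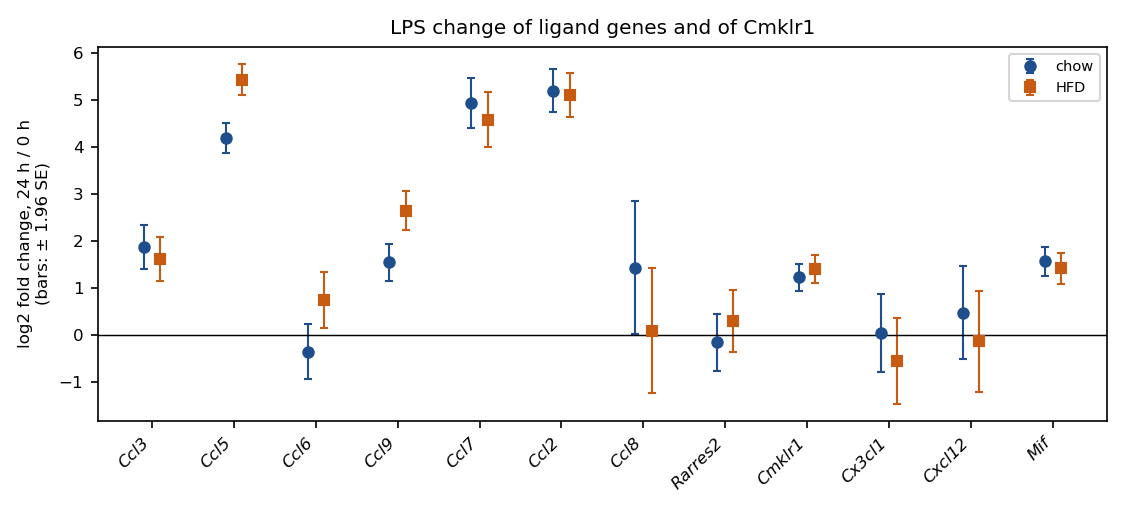
Log2 fold change with LPS (vertical axis, 24 h over 0 h) of ligand genes and of the chemerin receptor Cmklr1 in chow and HFD, with bars for 95% intervals from the edgeR standard errors. Ccl2, Ccl5 and Ccl7 lie above 4 in both diets, and the intervals of Ccl6, Ccl8, Rarres2, Cx3cl1 and Cxcl12 reach 0 or nearly so in at least 1 diet. Ccl12, with 0 counts in chow 0 h, is not drawn.

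Genes that carry or end the receptors' signal were described from a list of 30 symbols, of which 28 were matched and 27 tested. In each diet 5 rose, 10 fell and 12 did not pass, with median log2 fold changes of -0.14 in chow and -0.11 in HFD. Over all 12641 genes tested, 13.7% rose and 12.9% fell in chow, while 12.7% rose and 1511 genes fell in HFD. The medians over all genes were 0.00 in chow and -0.0023 in HFD. The genes for the inhibitory G protein subunits Gnai2 and Gnai3 and for Gnb1, Gnb2 and Gng2 did not pass in either diet. Of the genes that end signalling, Arrb1, an arrestin that binds activated receptors, fell by 1.46 ± 0.14 on the log2 scale in chow and by 1.34 ± 0.14 in HFD, while Arrb2 did not pass. The receptor kinase genes Grk5 (-1.26 ± 0.18 in chow, -1.09 ± 0.18 in HFD) and Grk3 (-0.95 ± 0.18, -0.88 ± 0.18) fell, and Grk2 and Grk6 did not pass. RGS proteins speed the shut-off of G proteins, and their genes split. Rgs10 (-1.94 ± 0.15, -1.87 ± 0.15), Rgs2 (-1.41 ± 0.16, -1.55 ± 0.16) and Rgs18 fell, Rgs14 (1.20 ± 0.16, 0.83 ± 0.16) and Rgs16 rose, and Rgs1 and Rgs19 did not pass. Further downstream, Plcb2, Pik3r5, Dock2 and Elmo1 fell by 0.70 to 0.95 on the log2 scale, and Pik3cg, Rac2 and Prex1 rose by 0.58 to 0.80. None of the 27 passed in either diet comparison or in the interaction.

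Ccrl2 had 3 transcript entries in the table, and the ratio of their counts differed between the times. The annotation places the first exon of the entry used above (NM_001302376) at chr9:111057381-111057519, apart from the 505-base first exon of NM_001302377 at chr9:111056766-111057270. The exons of NM_017466, the other entry of the ratio described next, are not given here. The ratio of the counts of NM_001302376 to those of NM_017466 was 0.912, 0.919 and 0.967 in chow 0 h and 1.10, 1.09 and 1.09 in chow 24 h. The HFD 0 h libraries had ratios of 0.942, 0.934 and 0.862, and the HFD 24 h libraries 1.11, 1.07 and 1.08. Every 24 h library was above 1 and every 0 h library below it. The log2 difference of the ratio, 24 h minus 0 h, was 0.24 over both diets, 0.23 in chow and 0.25 in HFD. The ratio of NM_001302377 to NM_017466 moved less, with means of 0.872 and 0.933 in chow 0 h and 24 h and of 0.877 and 0.951 in HFD. This comparison was chosen after the values had been seen and is a description, with no test. How the counter treated reads that fit more than 1 entry is not stated in the labels.

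**Figure D5:**
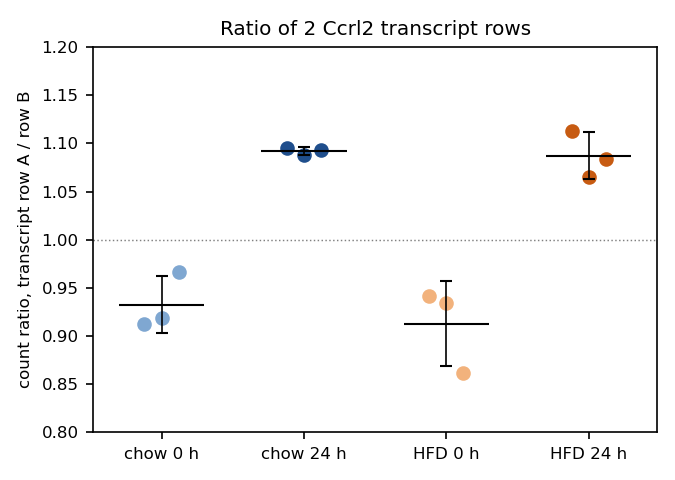
Ratio of the counts of transcript NM_001302376 (row A) to those of NM_017466 (row B) of Ccrl2 in each library (vertical axis, not starting at 0), with points for libraries, lines for means, bars for 1 SD (n = 3) and a dotted line at 1. All 6 libraries at 0 h lie below 1 and all 6 at 24 h above it.

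For each member the 3 genes with the most similar pattern over the 12 libraries were taken by Pearson's r of log2 CPM. These values mostly reflect the split between 0 h and 24 h that all libraries share, and they are given as a description. Nearest to Ccr1 were Ccl2 (r = 0.995), Cmpk2 (0.994) and Slfn1 (0.994). Nearest to Ccrl2 were H2-T24 (0.987), Cd302 (0.980) and Agfg1 (0.979). Nearest to Cxcr4 were Psap (0.985), St3gal2 (0.978) and Phospho1 (0.977), to Cx3cr1 Prkcb (0.971), Kcnj2 (0.965) and L1cam (0.965), and to Ccr2 Spp1 (0.968), Abca9 (0.965) and Arhgap19 (0.964). The genes nearest to Ccr1 rose by much more than Ccr1 did, with log2 fold changes of 5.11 to 6.26, and Spp1, nearest to Ccr2, fell by much less, -0.75 in chow and -0.45 in HFD.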

How the data were processed

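Per the labels' protocols, RNA came from a Qiagen RNeasy kit, and a NuGen Ovation Universal kit was used for library construction. The submitters' processing notes name CASAVA 1.8.2, STAR 2.5.2b and mm10. For the read counter, its annotation and strandedness, the sources used here give nothing. The authors deposited 1 table of raw read counts, not normalized, for 35745 RefSeq transcripts in 12 libraries. A RefSeq table named 35440 of them and GENCODE 188, and 117 had no symbol and kept their identifier, with 2.33% to 12.0% of a library's total. Isoforms share reads, so the transcript with the highest mean stood for each of 24562 genes.

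Counts were TMM-scaled and filtered with filterByExpr (12641 genes left), then tested with edgeR 4.0.16 (R 4.3.3) by robust quasi-likelihood in 1 fit of the 12 libraries, at a Benjamini-Hochberg adjusted p of 0.05. SE is the log2 fold change divided by the square root of F. Levels per kilobase used GENCODE transcript lengths. On simulated data the test recovered 85% of 100 genes changed by 1 log2 unit and all of 100 changed by 2 (LPS in chow, 12471 genes). The changed genes were drawn above a floor of mean counts that Ccr2 did not reach, with dispersions from the trend over genes. Recovery of lower genes was not simulated. Alternatives were other scalings, filters, DESeq2 1.42.0, limma-voom 3.58.1, summed transcripts, fewer samples, a replicate block, the lane tag and leaving out each library. No libraries of a group were duplicates (lowest chi-square per degree of freedom 5.98). Intervals on counts cover counting error only.

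Members and lists (other receptors, ligands, signalling genes and 9 marker lists) were chosen with earlier results of these data known. All members are named, with all tested receptors, up to 6 passing genes by adjusted p of another list, and the 3 genes most like each member; further list genes were named after their values were seen. Genes withheld from this work are not reported here and are left out of the lists.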

Additional observations from a re-analysis of the deposited data

How the results depend on the processing

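All 5 members passed with LPS in each diet, and none by diet or in the interaction, under every alternative run, including without the shallow HFD 0 h replicate 3. The 220 alternative LPS values of members kept direction and side of the threshold. Leaving out 1 library, Ccr1 ranged from 1.73 to 1.83 in chow and 1.89 to 2.19 in HFD, Ccrl2 from 1.35 to 1.77 and 1.19 to 1.43, Cxcr4 from -1.41 to -1.16 and -1.28 to -0.93, Cx3cr1 from -2.35 to -2.14 and -2.53 to -1.81, and Ccr2 from -2.95 to -2.48 and -2.02 to -1.33. The highest adjusted p (edgeR), 0.0329, was for Ccr2 in HFD without HFD 0 h replicate 2.

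Of 325 diet and interaction values of members, 11 changed sign, none of them past the threshold, and the cause was not tested. The Ccrl2 difference at 24 h was 0.0028 without a filter, 0.0060 with summed transcripts and 0.024 with limma-voom. With a block on the replicate order in the titles it was 0.014. It ran from -0.18 to 0.26 leaving out 1 library, with 0.061 without HFD 24 h replicate 1. That of Ccr2 ran from -0.014 (without HFD 24 h replicate 2) to 0.66. The Cx3cr1 interaction was -0.025 with the replicate block and -0.29 to 0.43 leaving out 1 library (-0.0071 without HFD 0 h replicate 2), and that of Cxcr4 ran from -0.011 (without HFD 24 h replicate 1) to 0.34.

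The labels repeat numbers between 0 h and 24 h libraries without saying what they mark, so whether they pair the samples is not known. The deviations of same-numbered libraries correlated at 0.03 to 0.35, with 3 of 6 over 0.1, and others at -0.31 to 0.11. At 0 h, 5 of 6 libraries correlated best with their own number. Deviations were taken from the mean of each group, so these matches depend on each other. Whether they reflect pairing was not tested. In the LPS and interaction fits the label numbers were the block. Chow and HFD libraries share no number, so the diet fits used the replicate order in the titles, which no label calls a pairing. With these blocks the members' counts stayed at 5, 5, 0, 0 and 0. Over all genes the title block gave 18 calls against 11 for diet at 0 h. The number block gave 4 against 0 for the interaction.

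Genes called moved by over 1.5 times elsewhere too. LPS in chow gave 1509 against 3357 with the lane tag. Diet at 0 h gave 23 without a filter and 66 with DESeq2, and 7 without chow 0 h replicate 2 to 25 without HFD 24 h replicate 2. Diet at 24 h (1) gave 10 without a filter, 10 with limma-voom, 43 with DESeq2, 0 with the lane tag or only the compared groups, and 0 (without chow 24 h replicate 1 or 2, or HFD 24 h replicate 2) to 4 (without HFD 0 h replicate 3) leaving out 1 library. The interaction gave 3 without a filter, 9 with DESeq2 and 3 without chow 24 h replicate 3 or without HFD 0 h replicate 2. Depth limits Ccr2 most, with 8 counts in its lowest library.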

Other observations

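10 of the 23 chemokine receptors were too low to be tested, and their summed counts are given as values. Ccr9, a gut homing receptor, had 24 counts in chow 0 h, 31 in chow 24 h, 8 in HFD 0 h and 37 in HFD 24 h. Ccr6 had 14, 14, 10 and 10 counts in the same order, Xcr1, a receptor of cross-presenting dendritic cells, had 6, 7, 5 and 17, and Ccr10 had 7, 8, 1 and 13. Ackr3, the scavenging receptor for Cxcl12, had 1, 18, 1 and 7 counts. Its ratio in chow was 16.7 with a counting interval of 2.64 to 697, which covers counting error only, and 11.0 without chow 0 h replicate 1. That ratio rests on 1 count at 0 h, and a change of Ackr3 was not tested. Ccr4, Ccr8, Ccr1l1, Ackr1 and Ackr2 had at most 4 counts in any group.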
